A study of Homo sapiens with 36 samples.

Results

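RPTOR, RICTOR, TSC1, TSC2, MLST8, TELO2 and TTI1 encode regulators of the TOR kinase complexes, and their transcripts were examined for RNA-binding clusters of SCAF4 and SCAF8. The genes were chosen by name, with RPTOR selected on its many clusters in the SCAF4 and SCAF8 pull-outs, so that the number of clusters per gene is a description here and was not tested. A cluster was assigned to a gene when its midpoint lay in the GENCODE 44 gene body on the same strand of GRCh38. These 7 of 9830 protein-coding genes with a cluster held 413 clusters in 18 cluster lists, of which 187 came from SCAF4 IPs, 153 from SCAF8 IPs, 15 from control IPs and 58 from inputs.

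SCAF4 and SCAF8 were mapped by PAR-CLIP, in which 4-thiouridine (4SU) in nascent RNA is crosslinked to bound protein by long-wave UV and read out as T-to-C changes. All lines were HEK293 Flp-In T-REx cells, a human embryonic kidney line with a single site for an inducible transgene, and their own SCAF4 and SCAF8 genes were intact (CRISPR status WT). The FLAG-SCAF4 line and the FLAG-SCAF8 line expressed the tagged protein from a doxycycline-inducible promoter, and the parental line carried no tagged protein. Cells of all 3 lines received 100 μM 4SU overnight, 500 μM 4SU for 2 h and 2000 J/m2 at 365 nm. Doxycycline was added overnight at 100 ng/mL to the FLAG-SCAF4 and FLAG-SCAF8 lines, by the sample labels, which give none for the parental line. The study's methods give another dose and name the parental line among the treated cells, so that the sources disagree on whether the control line received doxycycline. Each of the 6 groups (FLAG IP and input of each line, the FLAG IP of the parental line being the control IP) had 3 replicates, and each list joined the soluble and chromatin fractions of 1 replicate, 36 samples in all. Each FLAG line was 1 stable line. The study calls the replicates biological without saying how they were separated, and p-values measure the spread between these lists. The lists held 18287 to 54404 clusters for the SCAF4 and SCAF8 IPs, 4567 to 12493 for the inputs and 1621 to 9638 for the control IPs, without reads, and the read depth is therefore unknown. Read length was 100 nt for replicate 1 and 75 nt for replicates 2 and 3. No expression value came with the clusters, so the cell line could not be checked against marker genes, and more RNA of a gene and more binding to it cannot be told apart.

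TOR is a kinase that couples nutrients and growth factors to cell growth. RPTOR is the substrate-binding scaffold of TOR complex 1 and RICTOR the defining subunit of TOR complex 2, while MLST8 is shared by both. TSC1 and TSC2 form the complex that inactivates the small GTPase RHEB and so restrains complex 1, and TELO2 and TTI1 belong to the co-chaperone that assembles TOR and related kinases.

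Consensus clusters, regions with clusters of at least 2 lists that passed filters on input and control IP clusters, were found in 6 of the 7 genes for SCAF4, for SCAF8 and for the pooled set of 6 lists. Among all protein-coding genes with a cluster, 42.5% had a SCAF4 consensus cluster, 28.4% a SCAF8 consensus cluster and 53.7% a pooled consensus cluster. These genes include some with too few clusters to hold a region of 2 lists. The shares are therefore not those of genes with as many clusters as the members. The pooled set held 62 regions in the members. RPTOR had 24 regions, TSC2 12, TELO2 8, TTI1 7, RICTOR 6 and TSC1 5, whereas MLST8 had none. The input filter was applied to merged input regions; with single clusters of the 9 inputs counted in their place, TTI1 lost all of its 7 regions, the other members kept their numbers and 55 regions were left. In MLST8, the exon 8 region overlapped clusters of 2 inputs and the exon 9 region a control IP cluster. The 2.17 merged input regions per 10 kb of MLST8 exceeded the limit of 1. All input and control IP clusters of MLST8 came from replicate 1. Without replicate 1, MLST8 had 2 SCAF4 regions, 1 SCAF8 region and 2 pooled regions. Coding genes with any pooled consensus cluster had a median of 2, and only 6 of these 5280 genes, RPTOR included, had at least 24. Per 10 kb of gene, RPTOR held 0.569 regions against a median of 0.449, while TELO2 held 4.67 and TSC2 2.89. The count for SCAF4 was 39 regions and rested on replicates 2 and 3, since 8 remained without replicate 2 and 12 without replicate 3. The count for SCAF8 was 20 regions, with 12 without replicate 2 and 9 without replicate 3, and the pooled count was 35 and 25. The 24 pooled RPTOR regions became 17 without replicate 2 and 9 without replicate 3, the 12 of TSC2 became 5 and 4, and the 8 of TELO2 became 4 and 2. RICTOR and TSC1 had 3 and 2 without replicate 2 and again without replicate 3, and TTI1 had 4 without replicate 1 or 2.

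Sequences are shown of the 6 pooled consensus clusters found in most SCAF4 and SCAF8 IP lists, with the longer region taken where regions tied, as 5 did at 4 lists. Regions that recurred as often but did not pass the filters on inputs and control IPs are described with their genes. A seventh, in exon 24 of RPTOR, is shown because every SCAF8 IP list and no SCAF4 IP list held it. They were read from GRCh38 in the direction of transcription, at chr20:38006137-38006399 (TTI1, minus strand, exon 3 with the start of intron 3), chr17:80560129-80560339 (RPTOR, plus strand, intron 1), chr16:1506266-1506473 (TELO2, plus strand, exon 17 with its downstream junction), chr5:39063254-39063386 and chr5:39066605-39066894 (RICTOR, minus strand, intron 2), chr16:2050398-2050529 (TSC2, plus strand, exon 3) and chr17:80925349-80925542 (RPTOR, plus strand, exon 24). Exons and introns are numbered by the MANE Select isoform. A region that overlaps an exon is named for it, and the TELO2 region lies mostly in intron 17. Capitals mark CCAG or GCAG with C or G as the next base, on this strand, 1 of the motif families the study named from these same libraries.
TTI1 exon 3: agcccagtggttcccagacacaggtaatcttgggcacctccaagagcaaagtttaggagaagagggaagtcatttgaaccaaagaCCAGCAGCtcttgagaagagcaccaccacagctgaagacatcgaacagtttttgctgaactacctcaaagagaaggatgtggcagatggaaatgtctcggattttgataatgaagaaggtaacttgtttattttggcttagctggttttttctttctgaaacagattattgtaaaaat
RPTOR intron 1: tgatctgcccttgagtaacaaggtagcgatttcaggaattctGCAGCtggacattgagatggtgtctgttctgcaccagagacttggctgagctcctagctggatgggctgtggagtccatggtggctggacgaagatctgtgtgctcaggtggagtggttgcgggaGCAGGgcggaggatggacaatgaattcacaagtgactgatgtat
TELO2 exon 17: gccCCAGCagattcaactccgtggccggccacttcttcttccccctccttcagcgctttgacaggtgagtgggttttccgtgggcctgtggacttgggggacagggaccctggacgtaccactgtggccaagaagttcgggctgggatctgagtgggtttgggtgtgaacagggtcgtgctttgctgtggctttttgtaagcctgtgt
RICTOR intron 2, upstream region: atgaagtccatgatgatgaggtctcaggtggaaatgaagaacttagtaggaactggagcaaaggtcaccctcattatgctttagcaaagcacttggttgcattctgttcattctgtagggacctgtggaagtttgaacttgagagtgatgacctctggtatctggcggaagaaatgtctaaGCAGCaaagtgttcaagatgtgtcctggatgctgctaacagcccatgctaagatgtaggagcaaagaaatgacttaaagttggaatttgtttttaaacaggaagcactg
RICTOR intron 2, downstream region: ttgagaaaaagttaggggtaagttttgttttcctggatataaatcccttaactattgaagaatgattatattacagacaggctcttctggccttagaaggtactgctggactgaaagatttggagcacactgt
TSC2 exon 3: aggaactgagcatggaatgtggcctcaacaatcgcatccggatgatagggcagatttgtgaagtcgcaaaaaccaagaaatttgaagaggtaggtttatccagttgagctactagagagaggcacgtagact
RPTOR exon 24: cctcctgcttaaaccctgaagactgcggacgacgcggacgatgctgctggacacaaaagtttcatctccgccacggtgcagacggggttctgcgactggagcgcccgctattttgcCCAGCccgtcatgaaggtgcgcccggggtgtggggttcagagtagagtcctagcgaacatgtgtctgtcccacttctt

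The TTI1 region was found in all 6 SCAF4 and SCAF8 IP lists and in no input or control IP list. The RPTOR intron 1, TELO2 exon 17, TSC2 exon 3 and downstream RICTOR regions were each found in 5 of the 6 lists, and the upstream RICTOR region in 4. The downstream RICTOR region was also in FLAG-SCAF4 input 3. The motif in capitals occurred 2 times in the TTI1 and RPTOR intron 1 regions, once in those of TELO2 exon 17, RPTOR exon 24 and upstream RICTOR, and not in those of TSC2 and downstream RICTOR. Of all pooled consensus clusters within 10% of the same length, between 49.4% and 85.5% held it. Thymine, the base whose 4SU analogue is crosslinked, made up 21.2% to 32.3% of the 7 sequences, and G and C made up 37.6% to 59.3%. None of the 40 nt windows of these regions had a second exact copy in the genome.

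The RPTOR gene (ENSG00000141564, chr17:80544819-80966371, plus strand) spans 421553 nt, and its first intron takes up 19.0% of that length. SCAF4 IP lists held 7, 22 and 21 RPTOR clusters in replicates 1 to 3, and SCAF8 IP lists held 21, 17 and 45. The control IP lists held 4, 0 and 0, and the 9 inputs 1 to 5 each. As a share of the list, RPTOR took 3.69, 4.04 and 6.18 of every 10000 clusters in the SCAF4 IPs (4.64 ± 1.35, mean ± SD, n = 3 lists) and 8.34, 9.30 and 10.8 in the SCAF8 IPs (9.49 ± 1.26, n = 3). The SCAF8 lists were higher than the SCAF4 lists without overlap, 2.05-fold on average. This order was seen in 8.47% of 3423 protein-coding genes with at least 20 clusters, and RPTOR was the only member among them. The share of RPTOR in the SCAF4 IPs was within the range of the inputs, which reached 7.82 per 10000 in FLAG-SCAF4 input 2, and all 3 SCAF8 IP lists were above that.

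**Figure D1:**
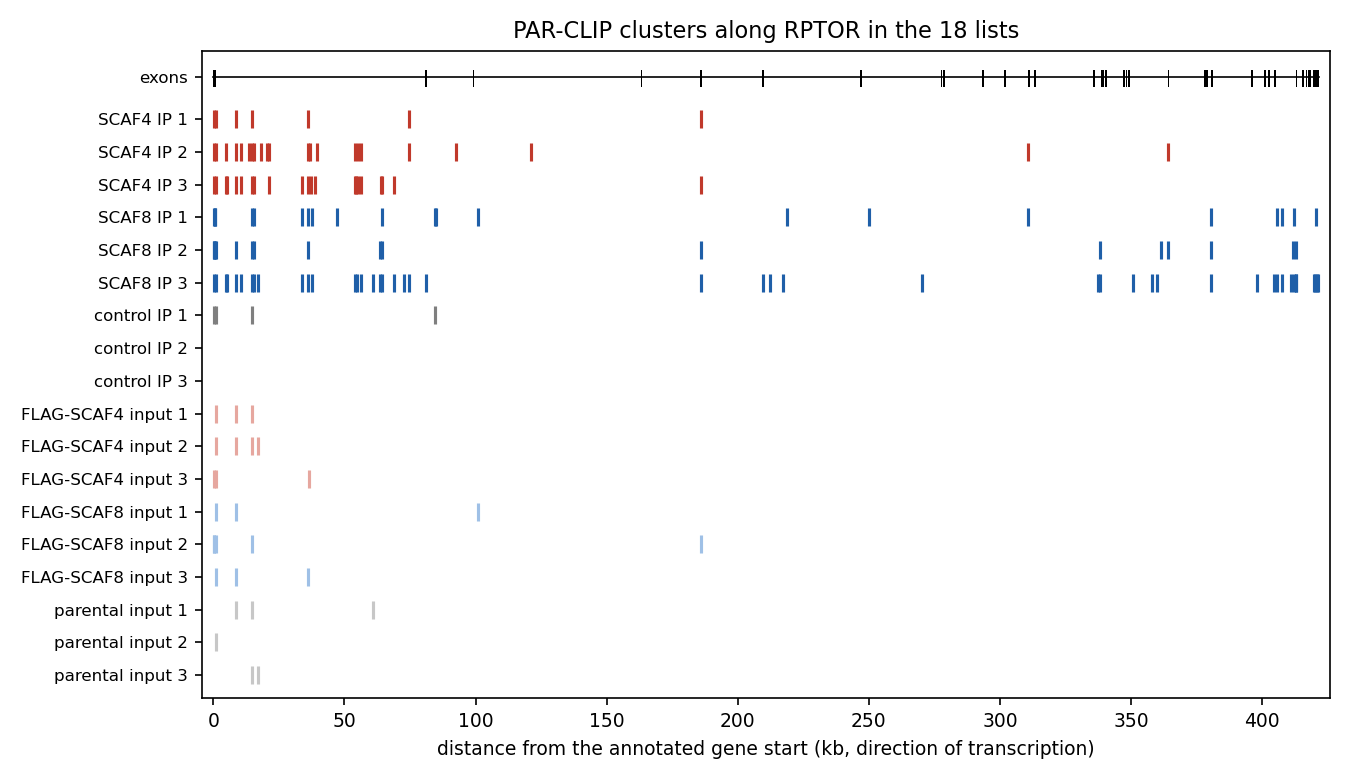
Position of each RPTOR cluster (vertical tick) in the 18 lists, against distance from the gene start in kb, with exons of the MANE Select isoform on top. Ticks of the inputs and of both proteins crowd the stretch before exon 2, and beyond the midpoint of the gene 35 ticks belong to the SCAF8 IP lists and 2 to SCAF4 IP 2.

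The clusters of SCAF4 and SCAF8 IPs differed in where they lay along RPTOR. Each protein was pulled down from 1 line of its own. Protein and line can therefore not be told apart in any comparison of SCAF4 with SCAF8. Beyond the midpoint of the gene lay 0 of 7, 2 of 22 and 0 of 21 clusters of the SCAF4 IPs, and 8 of 21, 6 of 17 and 21 of 45 clusters of the SCAF8 IPs. This share was 3.03% ± 5.25 for SCAF4 and 40.02% ± 5.93 for SCAF8 (SD, n = 3 lists each), 37.0 percentage points higher for SCAF8 with no overlap (exact permutation test, two-sided, p = 0.1, the smallest that 3 against 3 lists allow). The exact 95% intervals were 1.12% to 29.2% for SCAF4 IP 2 and 14.2% to 61.7%, 18.1% to 61.6% and 31.7% to 62.1% for the SCAF8 lists, and their upper limits for the 0 of 7 and 0 of 21 clusters of SCAF4 IPs 1 and 3 were 41.0% and 16.1% (42.9% and 14.3% by a limit of 3 clusters), all for counting error only. The 9 inputs had none of 27 clusters there, which allows up to 11.1% by the limit of 3 clusters. The median position of the RPTOR clusters on a scale from 0 at the start to 1 at the end of the gene was 0.0350 to 0.0860 in the SCAF4 lists and 0.151 to 0.441 in the SCAF8 lists (SCAF4 minus SCAF8, −0.201, exact permutation test, p = 0.1). When only clusters that reached their list's median score were kept, this difference, SCAF4 minus SCAF8, was −0.0693 (exact permutation test, p = 0.4), and that of the downstream share was −31.4 points (exact permutation test, p = 0.1). The middle of the gene was chosen as the dividing point after the positions had been seen.

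The gene was also split at the start of exon 2. Before exon 2, the lists held 3.16, 3.31 and 5.89 RPTOR clusters per 10000 for SCAF4 and 3.97, 5.47 and 5.06 for SCAF8, and the proteins overlapped. From exon 2 on, they held 0.527, 0.735 and 0.294 for SCAF4 and 4.37, 3.83 and 5.78 for SCAF8. SCAF4 IP 2, with 54404 clusters the longest list of all, had 4 clusters from exon 2 on, and SCAF8 IP 2, with 18287 clusters, had 7. The inputs had 2 clusters there among the 27, 1 in FLAG-SCAF8 input 1 and 1 in FLAG-SCAF8 input 2. Control IP 1 also had 1 cluster there.

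Merging the clusters of all lists gave 65 RPTOR regions. Both proteins were found in 18 of these, 62.1% of the 29 regions with SCAF4 and 33.3% of the 54 regions with SCAF8. A cluster in 1 list was enough for a region to count as holding a protein. The same split over all genes was not computed. Of the 30 regions before exon 2, 15 had both proteins, 9 SCAF4 alone and 6 SCAF8 alone. Of the 35 regions from exon 2 on, 3 had both, 2 SCAF4 alone and 30 SCAF8 alone, and 6 of the SCAF8 regions were in at least 2 SCAF8 lists. These 6 lay in intron 14 (chr17:80882706-80883109), exon 24, intron 28 (3 regions, among them chr17:80956619-80957033 in all 3 SCAF8 lists) and at exon 29 (chr17:80957599-80957728). The exceptions shared by both proteins were at exon 5 (chr17:80730560-80730708, in 2 SCAF4 lists, 2 SCAF8 lists and 1 input), exon 12 and exon 21. In the terminal exon, exon 34, clusters came from SCAF8 IPs only, with 4 regions in SCAF8 IP 3 and 1 in SCAF8 IP 1.

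**Figure D2:**
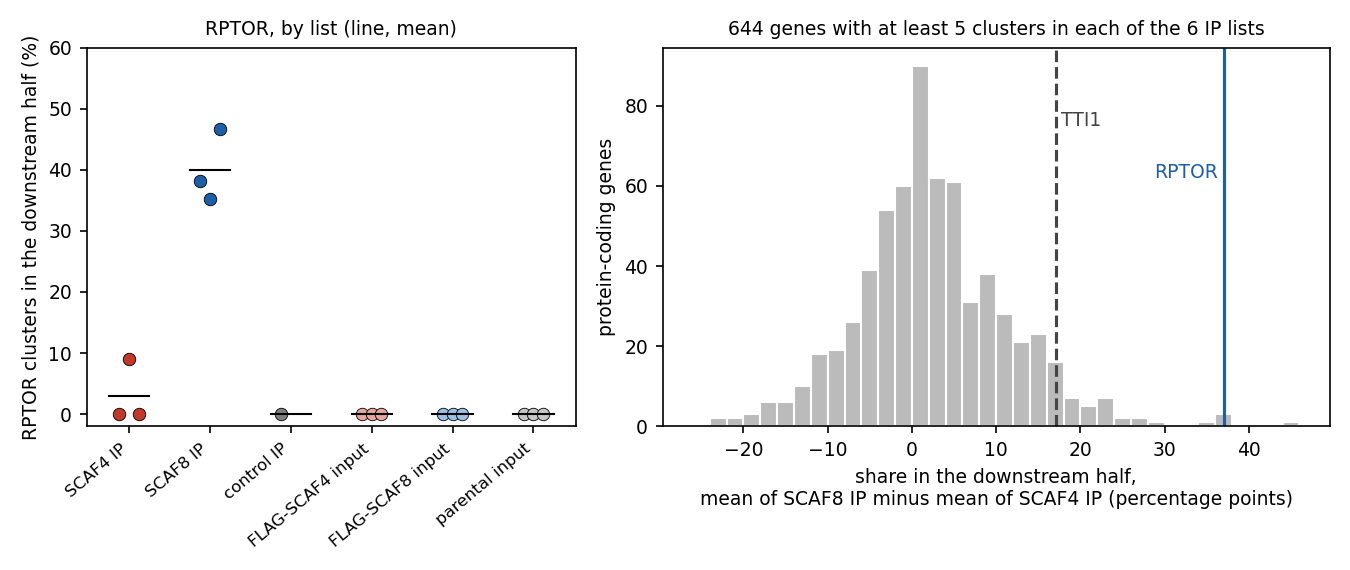
Left, share of RPTOR clusters beyond the midpoint of the gene for each list (points; line, mean), with means of 40.02% for SCAF8 IPs and 3.03% for SCAF4 IPs. Right, the same difference between the proteins for 644 protein-coding genes, in percentage points, with RPTOR (37.0) near the upper end and TTI1 (17.1) marked.

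Over the 644 protein-coding genes with at least 5 clusters in each of the 6 SCAF4 and SCAF8 IP lists, the median difference in the downstream share was 1.74 points, and 2 genes exceeded RPTOR. All 3 SCAF8 lists were above all 3 SCAF4 lists in 9.94% of these genes, and the opposite order was seen in 3.57%. Among the 116 genes of at least 100 kb, 17.2% had the SCAF8 lists above and 1 exceeded RPTOR. RPTOR and TTI1 were the members with enough clusters to be compared, and the lists of TTI1 overlapped.

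Of the 24 pooled RPTOR regions, 15 lay in intron 1 and 9 from exon 2 on, of which 5 overlapped an exon. CGG or CGA, another motif family of the study, occurred 0.789 times per 100 nt of the regions before exon 2 and 1.95 times per 100 nt of those from exon 2 on, against 1.71 in all 16510 pooled consensus clusters. CTCC or CACC occurred 0.574 and 1.45 times, against 0.871, and the motifs in capitals above 0.466 and 0.613 times, against 0.782. The G and C content was 50.7% before exon 2 and 56.3% from exon 2 on. Over the pooled regions of all members, CGG or CGA occurred 2.17 times per 100 nt of those overlapping an exon. It occurred 1.16 times per 100 nt of the intronic ones. Exon overlap and position along RPTOR were not separated.

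Of the 9 RPTOR regions that also held an input or control IP cluster, 6 lay before exon 2 and 3 from exon 2 on, in introns 2 and 3 and at exon 5. The region over exon 1 was in all 6 SCAF4 and SCAF8 IP lists, in 7 inputs and in control IP 1. A region in intron 1 (chr17:80559481-80559675) was in the same 6 lists, in 5 inputs and in control IP 1. Another in intron 1 (chr17:80553181-80553439) was in all SCAF4 IPs, SCAF8 IPs 2 and 3 and 5 inputs, and a region in intron 2 (chr17:80629290-80629461) was in SCAF8 IP 1 and control IP 1. All 4 control IP clusters of RPTOR came from control IP 1, which with 9638 clusters was by far the longest control list.

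RICTOR (ENSG00000164327, chr5:38937920-39074402, minus strand) held 2, 15 and 6 clusters in the SCAF4 IPs and 2, 1 and 5 in the SCAF8 IPs. The control IPs held none, and the inputs 0 to 3. Its share was 1.86 ± 0.856 per 10000 for SCAF4 and 0.849 ± 0.332 for SCAF8 (SD, n = 3 lists), and the lists overlapped. Near the start of the gene, in intron 2, lay 5 of the 6 pooled consensus clusters, at relative positions of 0.00498 to 0.0812. The sixth lay at exon 14 (chr5:38967160-38967288). Of the 22 merged RICTOR regions, 5 were found in inputs only.

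MLST8 (ENSG00000167965, chr16:2204248-2209453, plus strand), the shortest of the 7 genes, held 2, 4 and 3 clusters in the SCAF4 IPs and 3, 2 and 2 in the SCAF8 IPs. All of these 16 clusters had an exonic midpoint, and 7 of the 7 SCAF8 clusters and 8 of the 9 SCAF4 clusters lay beyond the midpoint of the gene. Control IP 1 held 2 clusters, in exon 9, and the inputs 0 to 2, in exons 8 and 9. Per 10000 clusters, MLST8 took 0.891 ± 0.159 in the SCAF4 IPs and 0.922 ± 0.384 in the SCAF8 IPs (SD, n = 3 lists), and the groups overlapped.

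TSC2 (ENSG00000103197, chr16:2047967-2089491, plus strand), the GTPase-activating subunit of its complex, showed the order opposite to that of RPTOR. SCAF4 IPs held 4, 18 and 14 clusters and SCAF8 IPs 3, 2 and 6, that is 2.11, 3.31 and 4.12 against 1.19, 1.09 and 1.45 per 10000. All SCAF4 lists were above all SCAF8 lists, 2.56-fold on average, an order seen in 10.2% of the 3423 genes and, among the members, in TSC2 only. Of its 12 pooled consensus clusters 10 overlapped an exon, and 10 regions were SCAF4 consensus clusters against 1 for SCAF8. Without replicate 2, and likewise without replicate 3, these were 3 and 1. SCAF4 alone was found in 15 of 22 merged regions and SCAF8 alone in 1, without a value over all genes for comparison. Clusters over a splice junction made up 23 of 36 in the SCAF4 IPs and 3 of 11 in the SCAF8 IPs.

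Several TSC2 regions were next to annotated ends of shorter isoforms. The region in intron 22 (chr16:2074679-2074912), in all 3 SCAF4 lists and in SCAF8 IP 3, ended 8 nt before such an end, and the region at exon 11 (chr16:2060597-2060870), in all 3 SCAF4 lists and no SCAF8 list, contained one. An annotated early end, at least 1000 nt before the gene's end and outside MANE exons, lay in or within 1000 nt downstream of 5 of the 12 TSC2 regions and of 10 of the 62 member regions (16.1%). In other protein-coding genes it did so for 11.2% of 14173 regions. TSC2 has many such annotated ends, several of them close together in intron 15, and the number of ends per gene was not taken into account. These ends are GENCODE models, and their use was not measured in these lists.

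TSC1 (ENSG00000165699, chr9:132891348-132946874, minus strand), the partner that stabilises TSC2, did not share this order. It held 0, 9 and 6 clusters in the SCAF4 IPs and 2, 5 and 9 in the SCAF8 IPs, or 1.14 ± 0.989 and 1.90 ± 0.998 per 10000 (SD, n = 3 lists), and the groups overlapped. The 5 pooled consensus clusters were spread from intron 1 to exon 23. A region in exon 23 (chr9:132893353-132893502) was in 2 SCAF4 lists, all 3 SCAF8 lists, 2 inputs and control IP 1, and a region at exon 3 (chr9:132928746-132928980) was in 4 SCAF4 and SCAF8 IP lists and control IP 1.

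**Figure D3:**
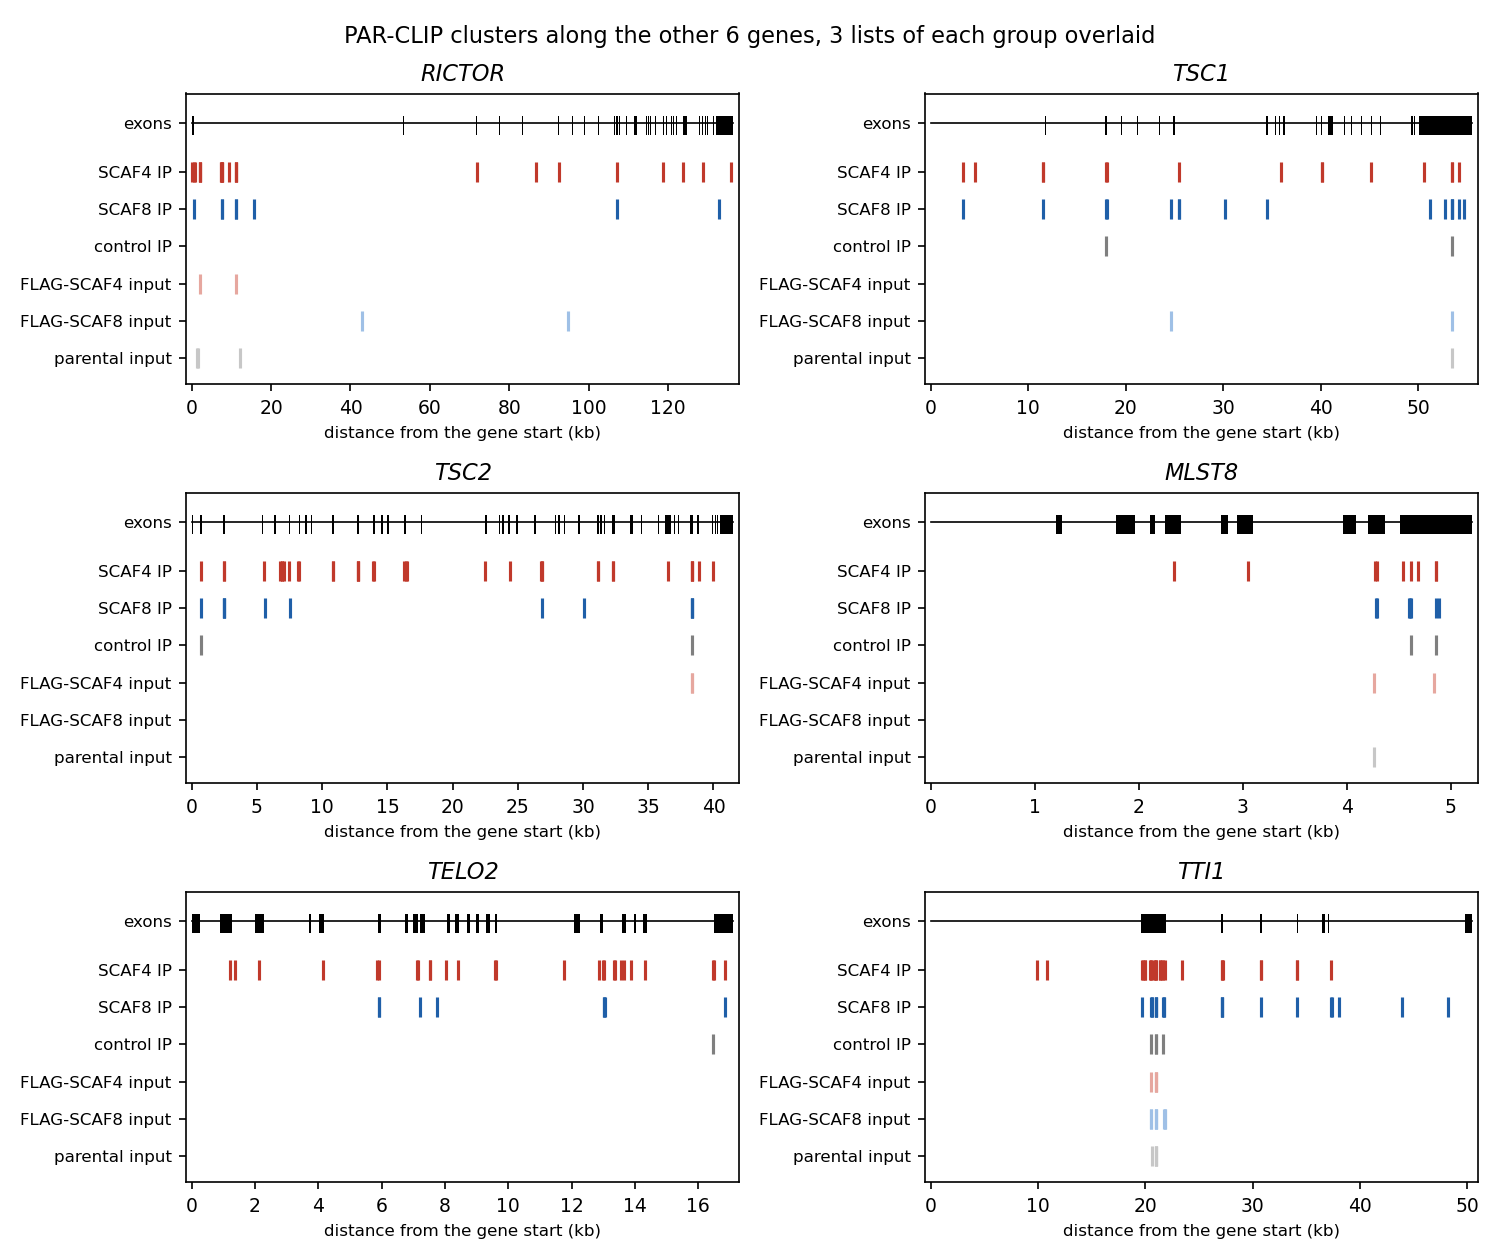
Clusters (vertical ticks) along the other 6 genes against distance from the gene start in kb, the 3 lists of each group overlaid, with exons of the MANE Select isoform on top. Many RICTOR clusters lie near the gene start, those of TELO2 are absent from the inputs, and input clusters of TTI1 lie in exon 2 only.

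TELO2 (ENSG00000100726, chr16:1493344-1510457, plus strand) was the only member without an input cluster. SCAF4 IPs held 2, 17 and 8 clusters and SCAF8 IPs 1, 2 and 5, whereas the 9 inputs held none of 72277 clusters, which allows up to 0.415 per 10000 over the inputs together and 6.57 in the shortest. The TELO2 share was 0.397 to 3.12 per 10000 in the SCAF4 and SCAF8 IP lists, the lowest from 1 cluster in SCAF8 IP 1, so that no IP list exceeded the limit of the shortest input. Control IP 1 held 1 cluster (1.04 per 10000) and the other control IPs none. TELO2 alone among the 7 genes was higher in every SCAF4 and SCAF8 IP list than in every input list, an order seen in 2.60% of 9830 genes. Genes that lacked a cluster in any of these IP lists could not show it. The percentage is therefore not that of genes with as many clusters as TELO2. No member had that order when only clusters that reached their list's median score were kept, while TSC1 and MLST8 had it too without replicate 1, and TSC2 without replicate 3. The share of TELO2 was 2.18 ± 1.05 per 10000 for SCAF4 and 0.898 ± 0.438 for SCAF8 (SD, n = 3 lists), and the lists overlapped.

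Splice junctions were overlapped by a larger share of clusters in TELO2 than in any other member, a difference not tested, with 20 of 27 clusters in the SCAF4 IPs and 6 of 8 in the SCAF8 IPs over one. The merged regions numbered 20, with 19 holding SCAF4, 5 SCAF8 and 4 both, again without a value over all genes. Besides exon 17, a region at exon 6 (chr16:1499087-1499327) was in 2 lists of each protein. A region in intron 17 (chr16:1506582-1506799), in SCAF4 IPs 2 and 3, contained the annotated ends of 3 shorter isoforms. The control IP cluster lay at exon 21, in a region (chr16:1509727-1509930) also held by SCAF4 IPs 2 and 3.

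TTI1 (ENSG00000101407, chr20:37983007-38033461, minus strand) held 8, 10 and 9 clusters in the SCAF4 IPs and 5, 8 and 7 in the SCAF8 IPs. The control IPs held 3, 1 and 0, and every input held 1 to 3. Per 10000, the share was 2.90 ± 1.21 for SCAF4, 2.68 ± 1.47 for SCAF8 and 1.60 to 3.33 in the inputs, and these ranges overlapped. All 16 input clusters and all 4 control IP clusters had their midpoint in an exon, and all lay in exon 2, the long coding exon. A region there (chr20:38012360-38012697) was in all 6 SCAF4 and SCAF8 IP lists, all 9 inputs and 2 control IPs. A further 2 regions of exon 2 (chr20:38012716-38013237 and chr20:38011496-38011940) were in control IP 1 and in 4 and 3 inputs.

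Away from exon 2, TTI1 clusters were found in the SCAF4 and SCAF8 IPs only. The exon 3 region printed above was in all 6 lists, the region at exon 4 (chr20:38002621-38002776) in 3, the region at exon 5 (chr20:37999261-37999374) in 3 and the region in intron 7 (chr20:37996047-37996219) in 3. An annotated isoform ended 297 nt downstream of the exon 3 region. The share beyond the gene's midpoint was 17.1 points higher in the SCAF8 IPs than in the SCAF4 IPs on average.

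**Figure D4:**
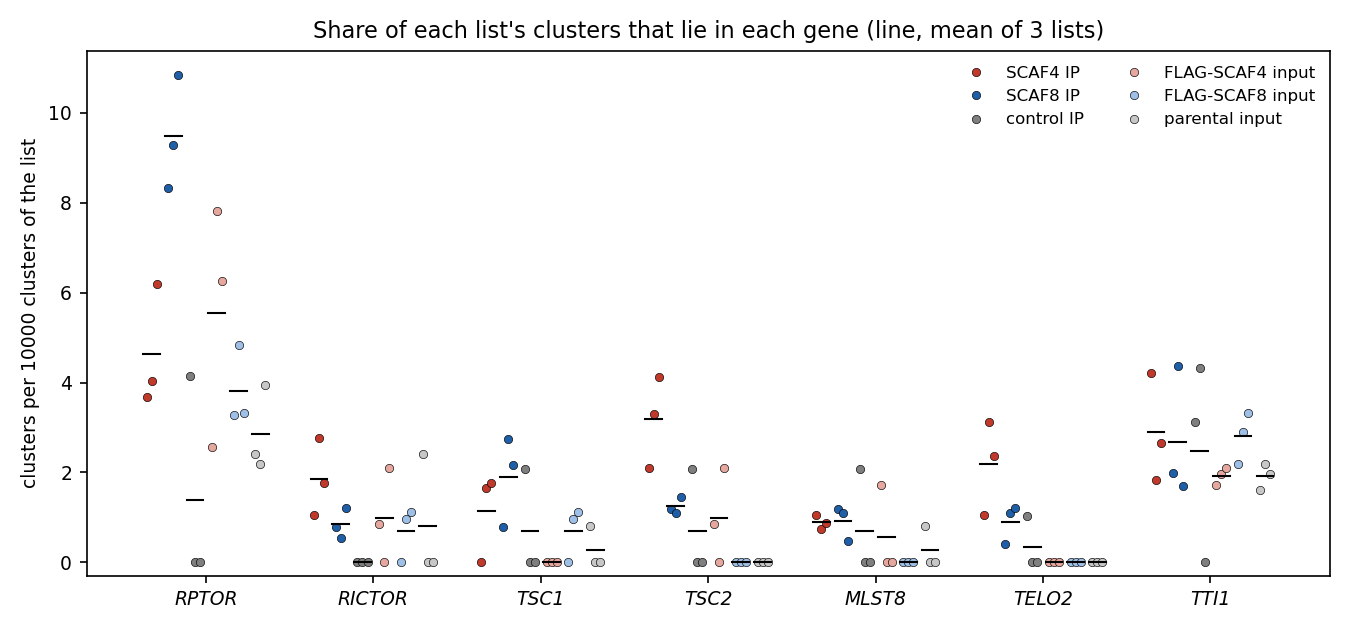
Clusters of each gene per 10000 clusters of the list (points, 3 lists per group; line, mean). SCAF8 IP lists are above SCAF4 IP lists for RPTOR (8.34 to 10.8 against 3.69 to 6.18) and below them for TSC2 (1.09 to 1.45 against 2.11 to 4.12).

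Other clusters that the control IPs shared with SCAF4 or SCAF8 IPs lay in TSC2 exon 2 (chr16:2048618-2048763, in SCAF4 IP 3, SCAF8 IP 3 and control IP 1), in TSC2 exon 37 (chr16:2086202-2086376, in all 6 lists, 2 inputs and control IP 1) and in MLST8 exon 9 (chr16:2208746-2209267, in all 6 lists, 1 input and control IP 1). Over the 7 genes, 12 of 166 merged regions held a control IP cluster and 23 an input cluster. Of the 161 regions with SCAF4 or SCAF8, 139 held neither. Every input and control IP list was shorter than every SCAF4 and SCAF8 IP list. The share over the regions of all genes was not computed, so this count does not set the members apart.

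Exonic midpoints were then compared between groups, with the isoform of largest summed exon length for each gene. The exonic share of the member clusters was 68.0%, 51.6% and 47.8% in the SCAF4 IPs and 51.4%, 62.2% and 38.0% in the SCAF8 IPs. In the 6 inputs of these lines, which held only 5 to 10 member clusters each, 2 of 5 to 7 of 10 clusters were exonic (61.0% ± 10.9, SD). The mean difference, IPs minus inputs, was −7.83 points (exact permutation test, 6 against 6 lists, two-sided, p = 0.236), and SCAF4 averaged 5.28 points above SCAF8 (exact, 3 against 3 lists, p = 0.6). Both differences were smaller than the spread between lists. For RPTOR alone, the exonic share was 42.9%, 18.2% and 14.3% in the SCAF4 IPs and 28.6%, 47.1% and 24.4% in the SCAF8 IPs, and SCAF4 minus SCAF8 was −8.25 points (exact permutation test, p = 0.5).

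**Figure D5:**
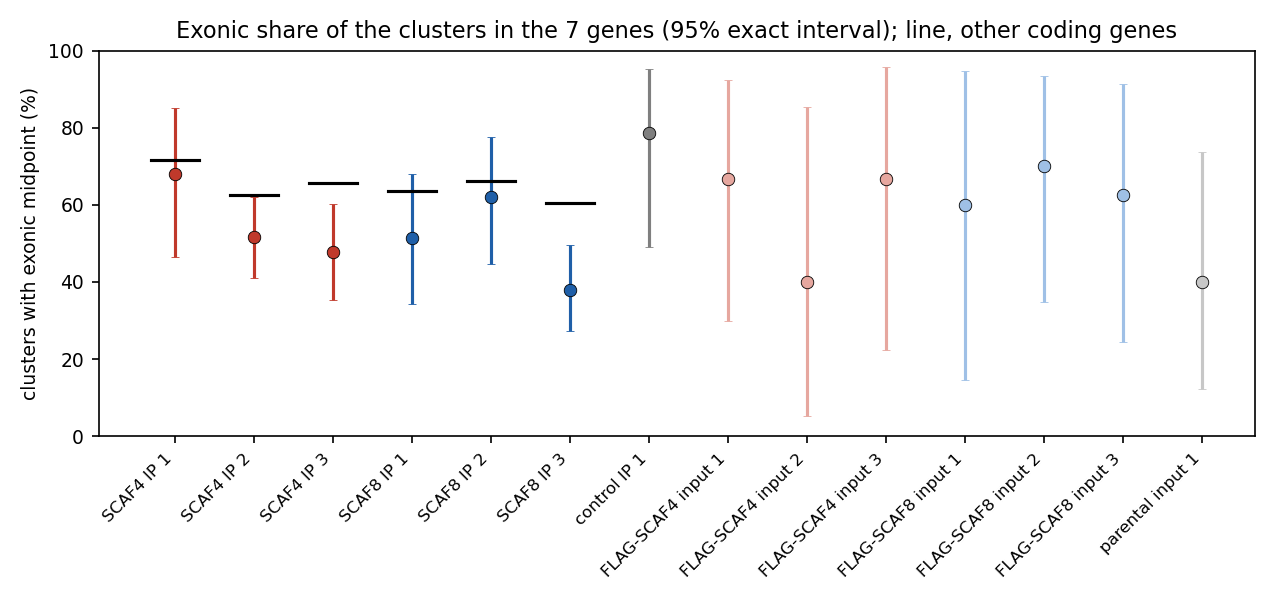
Exonic share of the clusters in the 7 genes for each list with at least 5 such clusters (points, with exact 95% intervals), and the share over clusters of other protein-coding genes in the same list (black line, SCAF4 and SCAF8 IPs only). The 6 points of SCAF4 and SCAF8 IPs lie below their line.

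Within each of the 6 SCAF4 and SCAF8 IP lists, the exonic share of the member clusters was below that of the clusters in other protein-coding genes, which was 60.4% to 71.7%. The mean difference was −11.9 points. RPTOR, which was selected on its number of clusters, supplied 133 of the 340 clusters and so set much of this pooled share, and the difference is therefore given as a description. Without RPTOR it was 4.09 points in the other direction (exact sign flips over 6 lists, two-sided, p = 0.313). Only 1.62% of the RPTOR gene is exonic in that isoform.

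Clusters over a splice junction made up 24.0%, 42.1% and 34.3% of the member clusters in the SCAF4 IPs and 18.9%, 27.0% and 16.5% in the SCAF8 IPs. The difference of 12.7 points was in the same direction in each replicate number, and the lists overlapped (exact permutation test, p = 0.2). Member clusters and clusters of other protein-coding genes differed by −0.487 points in this share, members minus others (exact sign flips, p = 0.844). The median length of the member clusters was 138 to 179 nt in the SCAF4 IPs and 130 to 167 nt in the SCAF8 IPs (difference 9.33 nt, exact permutation test, p = 0.5).

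Of 50 further genes of the TOR pathway, 41 had a cluster in some list, and of these 17 had a SCAF4 consensus cluster (41.5%), 12 a SCAF8 consensus cluster (29.3%) and 23 a pooled consensus cluster (56.1%), beside the 42.5%, 28.4% and 53.7% of all protein-coding genes. MTOR, the kinase itself, came first with 9 pooled consensus clusters, from 24 clusters in the SCAF4 IPs and 8 in the SCAF8 IPs. SEC13 and WDR59, subunits of the GATOR2 complex that relays amino acid signals, had 6 each, with 20 and 12 clusters in the SCAF4 IPs and 6 and 12 in the SCAF8 IPs. ITFG2, of the KICSTOR complex, and SESN3, a stress-induced sestrin, had 4 each, with 14 clusters in the SCAF4 IPs and 4 in the SCAF8 IPs for either gene. RUVBL2 and RUVBL1, ATPases that work with TELO2 and TTI1, had 3 and 2. RUVBL1 also held 10 clusters in the inputs.

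The 5 protein-coding genes whose pattern over the 18 lists was most like that of RPTOR were UBE2J2, SFMBT2, MTA1, MED15 and SFSWAP, with Pearson correlations of log2(clusters per 10000 + 1) of 0.852, 0.834, 0.831, 0.820 and 0.813 among 3423 genes. The points share libraries and list lengths, and the correlation is a description.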

How the data were processed

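The members and gene lists were chosen with earlier results of these data known. Per the study's methods and processing notes, the authors trimmed reads (Trim Galore, cutadapt), aligned them to GRCh38 with Bowtie2 2.2.9, removed duplicates with Picard, merged both fractions of a replicate and called clusters with PARalyzer. Removing duplicates without molecular tags can limit clusters in abundant RNAs. The deposited files hold positions and an unnamed score of 0.501 to 1 from the authors, used here for ranking only.

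From these, clusters were counted by midpoint, scaled per 10000 and merged into consensus regions with steps modelled on the study's methods (at least 1 nt overlap; regions overlapping more than 1 input list, any control IP cluster, or genes where merged input regions reached 1 per 10 kb, counted with 2000 nt flanks, were removed). The methods speak of input clusters per 10 kb without saying how lists were combined, and merged input regions were used here, so the counts need not be those of the study. All 24 chromosome names of the lists were in the reference and no cluster passed a chromosome's end. Starts were read as 0-based BED and are printed 1-based. Differences were tested by exact permutation of lists or exact sign flips, checked on simulated data, with Python 3.11.15, numpy 2.4.6 and scipy 1.17.1.

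The text names all 7 members, the 8 further TOR pathway genes with most pooled consensus clusters (1 is not reported here), the 5 genes most like RPTOR, the 6 pooled consensus clusters in most IP lists (ties by length) and every member cluster in a control IP. RPTOR exon 24, the further recurrent regions and all early ends were singled out after their values were seen. Alternatives were leaving out each replicate number, other exon models, score and overlap limits, other inputs, single filters left out and the replicate block.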

Additional observations from a re-analysis of the deposited data

Results flagged for a closer look

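Of 17 sets of 6 or 9 lists examined, 3 held a list far from the others. Chance gives about 1 in 20 for normally spread values, a rate that need not hold for sets made mostly of lists without a cluster, such as those of TSC2 and MLST8. The exonic share of member clusters in the 6 inputs of the FLAG lines was lowest in FLAG-SCAF4 input 2 (2 of 5 clusters) against 3 of 5 to 7 of 10 clusters in the other inputs, and this gap was 0.667 of the whole range. TSC2 took 2.09 clusters per 10000 in FLAG-SCAF4 input 3, from 1 cluster, a gap of 0.591 of the range over the 9 inputs. MLST8 took 1.71 per 10000 in FLAG-SCAF4 input 1, from 2 clusters, a gap of 0.531 of the range. Opposite MLST8, outside annotated antisense genes, SCAF4 IP 2, SCAF4 IP 3 and SCAF8 IP 3 held 1 cluster each, 3 in all, and the control IPs held none.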

How the results depend on the processing

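Of 99 alternatives over 13 results, 75 kept the direction and the side of the threshold of 0.05 for p, or, for counts, stayed within 1.5 times. Some of the 75 left the result unchanged, such as an overlap of 20 nt or no input density filter for consensus clusters. Admitting lists with at least 1 member cluster could change nothing, since every input of the FLAG lines held at least 5. Exact permutation of 3 against 3 lists cannot fall below p = 0.1, so for those results only the direction could change. Without a replicate number, exact sign flips within lists cannot fall below p = 0.125. In this tally, the exonic difference between members and other genes, given above as a description, counted as below 0.05. Without a replicate number it was bound to move above, and with the score limit it moved above as well. Leaving out a replicate number moved the difference between SCAF4 and SCAF8 IPs in exonic share from −0.398 to 13.2 points over the members and from −19.5 to 2.06 points in RPTOR, and the difference in junction-spanning share between members and other genes from −3.51 to 1.18 points, so that these differences had no stable sign. The exonic difference between members and other genes ran from −14.0 to −7.75 points without 1 replicate number. It was −6.96 points with a lower limit at each list's median score, and 4.09 points without RPTOR. Consensus clusters without a replicate number were 8 to 38 for SCAF4, 9 to 17 for SCAF8 and 25 to 60 pooled. Requiring at least 3 lists gave 6, 7 and 29, and the score limit gave 14, 9 and 31. Counting input clusters singly for the density filter, chosen after seeing the data, gave 33, 18 and 55. Members above all inputs numbered 1 to 3 without a replicate number and 0 with the score limit, the cause of which was not tested. The downstream share of RPTOR, SCAF4 minus SCAF8, was −42.4 to −31.4 points under its 6 alternatives, which were chosen after seeing the data, as were the MANE Select exons and the omission of RPTOR. Each input came from an extract of its line, and same-numbered IP and input lists correlated at 0.0201 to 0.423 in their deviations. SCAF4 and SCAF8 IPs of the same number correlated at 0.388, −0.0353 and 0.210, and those of different numbers at −0.378 to 0.368. Whether their numbers pair them is not settled by these values. With the replicate block, the exonic difference between IPs and inputs (−7.83 points, exact sign flips, p = 0.25) changed no call. The differences between SCAF4 and SCAF8 could not change theirs, since exact sign flips over 3 replicate numbers cannot fall below p = 0.25. Single values rest on few clusters: most inputs held fewer than 10 member clusters.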
